A study of Mus musculus with 2 samples.

Results

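The genes described here encode the proteins of the large subunit of the cytosolic ribosome, measured in kidney RNA of adenine-fed mice with and without 3-(4-hydroxy-3-methoxyphenyl)propionic acid (HMPA) in the diet. The members were all non-control spots of a mouse Agilent expression array whose gene name is Rpl followed by a digit, or Rplp0, Rplp1 or Rplp2. The rule found 51 genes on 89 probes and 98 spots, of 41174 non-control probes and 43379 non-control spots on the array. After probes near background were left out, 50 of the 51 were among 16698 genes measured. The family was chosen because its ratios of HMPA over adenine alone, on these same 2 arrays, were mostly below 0. Every ratio of a member given here is therefore a description of a family selected on that measure, and carries no test.

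Kidney RNA came from male CD-1 mice, an outbred stock, that were 7 weeks old when the diets began. Every animal received AIN-93G, a purified rodent diet, with 0.2% adenine by weight, which loads the kidney with a poorly soluble purine metabolite and injures the tubules. The HMPA group received 2% HMPA by weight in the same adenine diet, and both groups were fed for 1 week. No adenine-free group was analysed here, so the ratios compare injured kidneys with and without the compound and set neither against a healthy kidney. The sample titles give an age of 12 weeks and 5 mice, which the feeding protocol does not explain, and nothing states whether the RNA of those mice was pooled.

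The RNA was compared on 2 arrays that read both RNAs at once in different dyes, on the same slide. Array 1 carried HMPA in red and adenine alone in green, and array 2 the reverse. The labels do not say whether both arrays carry the same RNA extracts. They were treated as a dye swap of 1 RNA sample per condition, so no spread between animals is given and no p-value. A ratio is given as log2 of HMPA over adenine alone, so that -1 is a level 2-fold lower with HMPA. After ± stands how far either array lies from their mean (n = 2 arrays). This value holds the error of labelling and hybridisation and any bias of a gene's probe toward 1 dye. If the extracts differ, it also holds the difference between them.

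The large subunit holds the peptidyl transferase centre, which joins amino acids, and the tunnel through which the new chain leaves. Its proteins surround and stabilise the ribosomal RNA, and cells make them in near-equal numbers. In mammals their mRNAs usually begin with a C followed by a run of pyrimidines, the TOP element, through which mTOR signalling sets their translation together. The genes are among the most strongly expressed in most cells, and many have processed pseudogenes of nearly the same sequence. Of the 51 members, 46 are core large-subunit proteins and 5 are paralogs (Rpl3l, Rpl7l1, Rpl22l1, Rpl36al and Rpl39l).

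The probes are 60 bases long, and 5 of them are printed because they show what a member's signal was read from. In the first pair, from Rpl5, capitals mark the 28 bases that both probes share. The probe spanning an exon junction lies at chr5:108332860-108333767, plus strand, of the mm9 mouse genome, the build of the array's own positions. The contiguous probe lies at chr5:108332845-108332904, plus strand, and holds a stop codon in every forward frame. The Rplp0 probe was printed in 10 spots and has no position in the array's annotation. Rpl7 (chr1:16092882-16093279, minus strand) and Rpl3 (chr15:79910252-79910826, minus strand) are shown as a gene whose arrays were close and one whose arrays were far apart. All but the contiguous Rpl5 probe have a forward frame with no stop codon.
Rpl5, across an exon junction: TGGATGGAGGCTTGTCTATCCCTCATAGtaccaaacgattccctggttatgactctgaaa
Rpl5, contiguous on the genome: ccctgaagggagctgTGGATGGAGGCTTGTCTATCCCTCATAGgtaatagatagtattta
Rplp0, printed in 10 spots: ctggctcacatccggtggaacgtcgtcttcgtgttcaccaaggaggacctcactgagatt
Rpl7, across an exon junction: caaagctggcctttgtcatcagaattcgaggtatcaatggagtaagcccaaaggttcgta
Rpl3, across an exon junction: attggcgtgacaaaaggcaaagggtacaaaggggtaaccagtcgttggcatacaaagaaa

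The large-subunit genes were lower with HMPA almost throughout. Of 50 measured members, 46 were below 0 on both arrays, against 42.9% of all measured genes. By the 1.5-fold rule (a mean of at least 1.5-fold, and a log2 ratio of at least 0.32 in the same direction on each array) 37 members were lower, against 16.2% of all genes, and 0 were higher, against 13.5%; with some other processings 1 member, Rpl3l, was higher. By the 2-fold rule (a mean of at least 2-fold, and at least 1.5-fold on each array) 18 were lower, against 7.72%. Since the family was picked for being lower, these shares are set side by side and nothing is read from them. The median member ratio was -0.88, with -0.78 on array 1 and -0.99 on array 2, and the median of all genes was -0.04. In bulk tissue, fewer cells of a type that makes much of an mRNA and less of that mRNA per cell cannot be told apart.

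**Figure D1:**
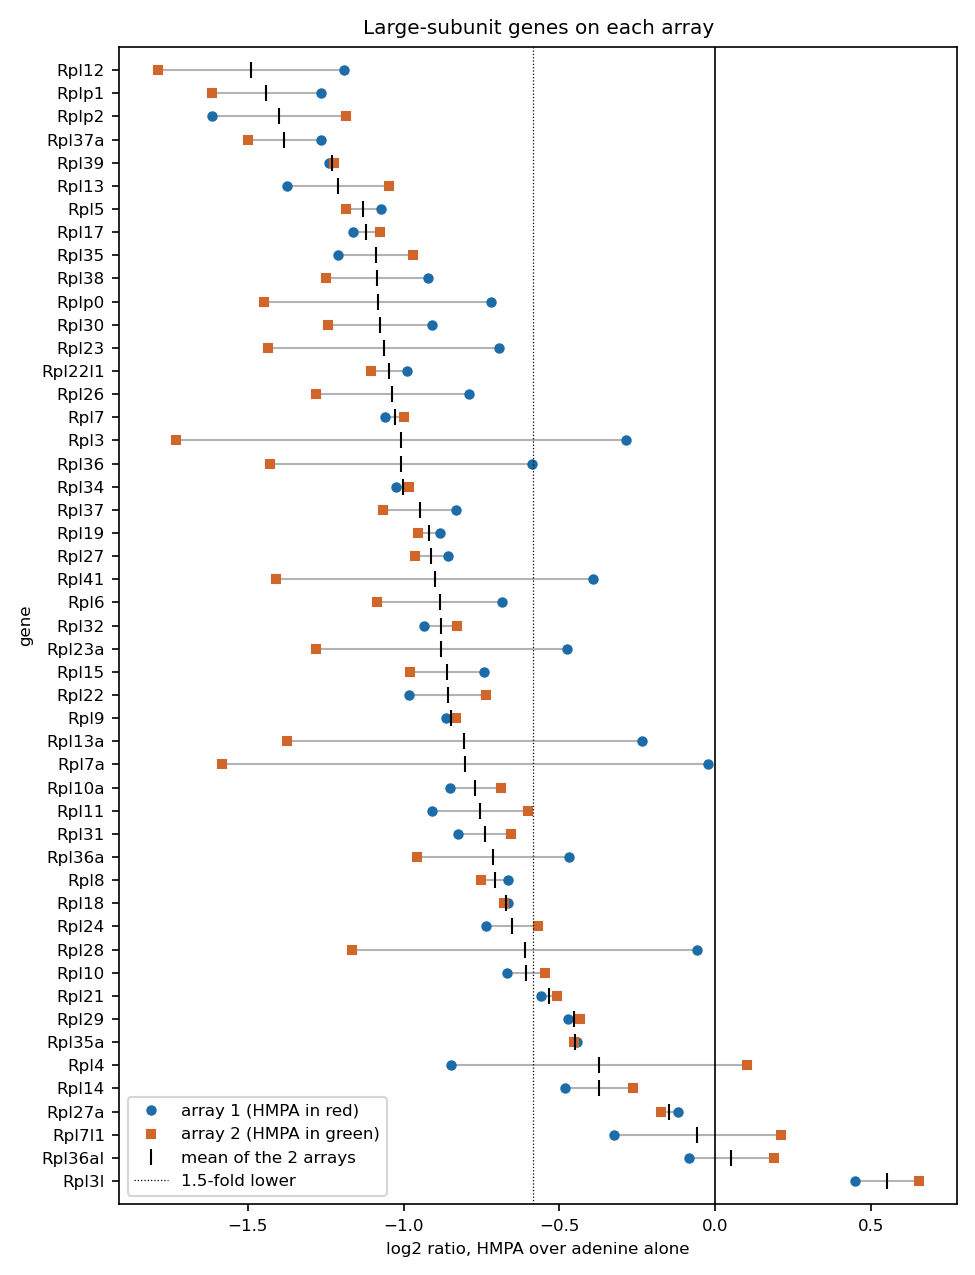
Ratios of 49 of the 50 measured large-subunit genes, sorted by their mean. The horizontal axis is the log2 ratio of HMPA over adenine alone, each line joins the values of array 1 (circle) and array 2 (square), the tick is their mean, and the dotted line marks 1.5-fold lower. Rpl12 lies lowest at -1.49 and Rpl3l highest at 0.55, and Rpl7a has the longest line, from -0.02 to -1.58.

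The proteins of the stalk, the flexible arm that recruits translation factors to the ribosome, held the 3 lowest ratios of the family. The stalk consists of Rplp0 with Rplp1 and Rplp2 bound to it, and Rpl12 sits at its base. All 4 met the 2-fold rule, with a median of -1.42. The normalised signal of Rpl12, its spot intensity after background correction and scaling, was 42761 with adenine alone and 18710 with HMPA on array 1, and 44964 and 13001 on array 2, a ratio of -1.49 ± 0.30 or 2.81-fold lower. Rplp1 had 69294 and 28807 on array 1 and 70557 and 23048 on array 2, a ratio of -1.44 ± 0.17. For both genes each HMPA signal was below each signal of adenine alone. Rplp2 had 62634 with adenine alone and 20431 with HMPA on array 1, and 55650 and 24458 on array 2, a ratio of -1.40 ± 0.22.

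Rplp0, often used as a reference gene in expression assays, was also lower. Its representing probe gave -0.72 on array 1 and -1.45 on array 2, a mean of -1.08 ± 0.36. A further Rplp0 probe, the one printed in 10 spots, allowed the error within an array to be measured. Its ratio was -0.82 ± 0.15 (SD, n = 9 spots) on array 1 and -0.85 ± 0.12 (SD, n = 8 spots) on array 2, after 1 and 2 spots marked as outliers were left out. The spots ranged from -1.11 to -0.57 on array 1 and from -1.10 to -0.74 on array 2, all below 0. The remaining Rplp0 probe read -0.83 ± 0.05.

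The 8 proteins of the exit tunnel and its rim, where chaperones and targeting factors meet the new chain, had a median of -0.98, and 7 of them met the 1.5-fold rule. Rpl39, a small protein of the tunnel wall, was lowest. Its signal was 27283 with adenine alone and 11559 with HMPA on array 1, and 24456 and 10478 on array 2, a ratio of -1.23 ± 0.01, so that both arrays gave nearly the same value. Rpl17, Rpl35 and Rpl26 were at -1.12, -1.09 and -1.04, and Rpl19, Rpl23a and Rpl31 between -0.92 and -0.74. Rpl4, which reaches into the tunnel and narrows it, was the exception, with -0.85 on array 1 and 0.10 on array 2. Its 1 probe was of moderate brightness, and its arrays differed in sign, so no direction can be given.

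Both proteins that bind 5S ribosomal RNA were lower. Free of the ribosome, Rpl5 and Rpl11 with this RNA bind Mdm2, the ligase that degrades p53. Rpl5 was at -1.07 on array 1 and -1.18 on array 2, a mean of -1.13 ± 0.06, and Rpl11 at -0.75 ± 0.15. The second of the Rpl5 probes printed above, which shares 28 bases with the first, also read -1.13. Another Rpl5 probe, at chr5:108337918-108337977, read 0.74 on array 1 and 0.11 on array 2. Rpl5 is thus lower by a pair of overlapping probes and higher by a separate, dimmer one.

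Of the proteins that reach toward the peptidyl transferase centre, Rpl3 was at -1.01 ± 0.72, Rpl8 at -0.71 ± 0.04 and Rpl10 at -0.61 ± 0.06. Rpl10 joins the subunit last, in the cytoplasm. The arrays put Rpl8 and Rpl10 close together but not Rpl3, which read -0.29 on array 1 and -1.73 on array 2. The proteins at the contacts with the small subunit, Rpl30, Rpl41 and Rpl24, were at -1.08, -0.90 and -0.65. Rpl10a, the protein of the L1 stalk that helps spent tRNA leave, was at -0.77 ± 0.08.

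The remaining 25 core proteins lie mainly on the outer surface of the subunit. Their median was -0.86, all 25 were below 0 on both arrays, 17 met the 1.5-fold rule and 7 the 2-fold rule. Rpl37a was lowest: its signal was 55795 with adenine alone and 23201 with HMPA on array 1, and 55924 and 19766 on array 2, a ratio of -1.38 ± 0.12. Rpl13 followed at -1.38 on array 1 and -1.05 on array 2, a mean of -1.21 ± 0.16. Rpl38, whose loss in mice alters translation of Hox genes and the skeleton, was at -1.09, and Rpl22, an RNA-binding protein needed by developing T cells, at -0.86.

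The highest of the core genes was Rpl27a. Its signal was 2227 with adenine alone and 2050 with HMPA on array 1, and 2160 and 1913 on array 2, a ratio of -0.15 ± 0.03. The arrays were close for this gene, and its ratio lay well above the family median. Rpl14 was at -0.48 on array 1 and -0.26 on array 2, a mean of -0.37 ± 0.11. Rpl21 at -0.53 ± 0.02, Rpl29 at -0.45 ± 0.02 and Rpl35a at -0.45 ± 0.01 were also short of 1.5-fold, with close arrays. Most of these genes were read by dimmer probes than the family, whose median log2 signal was 13.90. Rpl14 had 8.92, Rpl21 9.18, Rpl27a 11.03 and Rpl29 11.99, while Rpl35a had 13.43. The part of probe signal in their smaller ratios was not tested.

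The paralogs went both ways. Their median over 4 measured members was -0.0026, and 1 of them met the 1.5-fold rule as lower. Rpl22l1, the paralog of Rpl22, was lower at -0.99 on array 1 and -1.10 on array 2, a mean of -1.05 ± 0.06. Rpl3l, which replaces Rpl3 in heart and skeletal muscle, was higher at 0.45 and 0.65, a mean of 0.55 ± 0.10. Its probe was dim, with signals of 62 and 64 for adenine alone and 85 and 102 for HMPA, at the 15.2th percentile of all genes, and its mean was short of 1.5-fold. This value depended on how background was treated: it was 0.85 with no correction, 0.99 with a smaller offset and 2.07 with the ratios of Agilent's software, each past the 1.5-fold rule. Rpl36al was at -0.08 on array 1 and 0.19 on array 2, with a mean of 0.05 ± 0.14. Like Rpl3l, Rpl36al and Rpl7l1 had a log2 signal under 12. Rpl7l1, a nucleolar relative of Rpl7, was at -0.33 and 0.21, with a mean of -0.06 ± 0.27. A second Rpl7l1 probe read 0.69 ± 0.28, so the sign of this gene depends on the probe. The 2 probes of Rpl39l, a paralog known from testis, were not well above background.

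Large-subunit probes were much brighter than most. The median member lay at the 98.8th percentile of signal among all measured genes, and 40 members lay above the 95th. Brightness is set by the probe as well as by the RNA, so it describes the spots and does not rank the genes. No member spot was saturated. Across the 50 members the ratio was lower where the signal was higher (Pearson r = -0.77, Spearman rho = -0.67, across genes of the same 2 arrays, which are not independent replicates). The 41 members with a mean log2 signal of at least 12 had a median of -0.95, and 36 of them met the 1.5-fold rule and 18 the 2-fold rule. The 9 dimmer members had a median of -0.37, and 1 of them, Rpl31, met the 1.5-fold rule. With median centring in place of loess the bright members had a median of -0.94 and the 9 dimmer ones -0.59, and 2 of the dimmer, Rpl31 and Rpl21, met the rule.

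Other genes as bright lay on both sides of 0. Of 1087 measured genes that encode no ribosomal protein and had a signal of at least 12, 39.1% were below 0 on both arrays, 24.4% were lower by the 1.5-fold rule and 11.8% by the 2-fold rule, and their median was 0.08. Among genes with a signal of at least 14, the 140 non-ribosomal genes had a median of 0.18 and the 24 large-subunit genes one of -1.03. This comparison set was added after the ratios were seen. Loess centres the ratios near 0 at each brightness, so the medians of these non-ribosomal genes were largely set by the normalization. Before it, the 1087 genes had medians of -0.49 on array 1 and 0.34 on array 2, against -1.35 and -0.62 for the members. The part of brightness in the family's ratios was not tested.

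**Figure D2:**
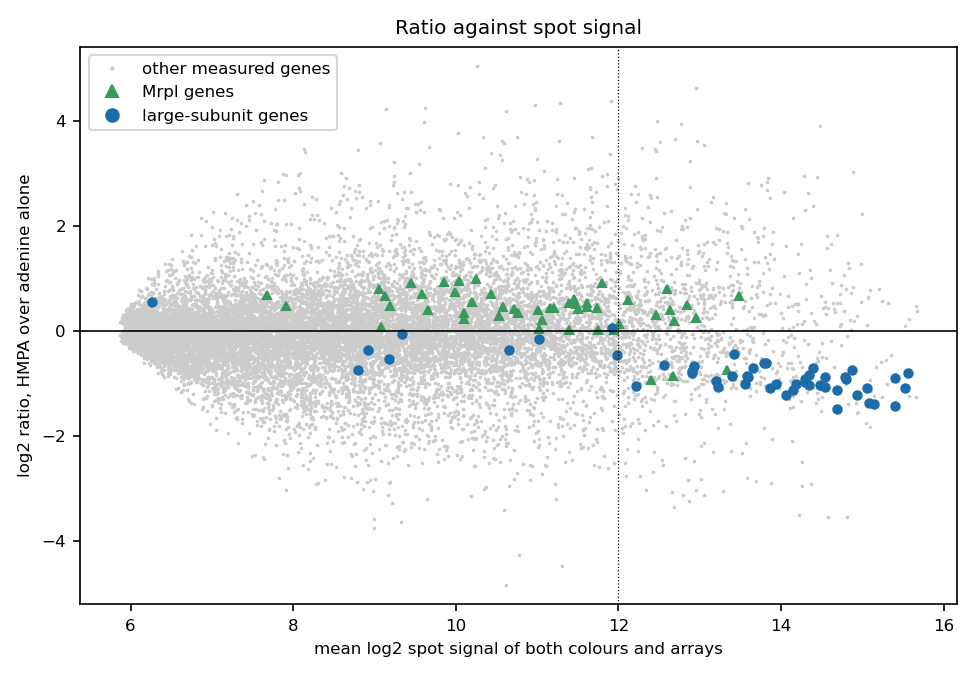
Log2 ratio of HMPA over adenine alone (mean of both arrays) against the mean log2 spot signal, for every measured gene. Circles are the 50 large-subunit genes, triangles the 49 genes of the mitochondrial large subunit and small dots all other genes, and the dotted line marks a signal of 12. The circles form a narrow band below 0 at the bright end, while dots at the same signal spread to both sides.

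The arrays gave the family different depths, and which array was deeper depended on the normalization. As reported, the median was -0.78 on array 1 and -0.99 on array 2. With median centring in place of loess it was -1.11 on array 1 and -0.66 on array 2. The values that follow are those of the reported loess. Array 2 put 28 of 50 members lower than array 1 did. Between arrays, the members' ratios correlated at r = 0.41 (rho = 0.27) across the 50 genes. Across all genes, whose ratios span a wider range, r was 0.89. For 8 members the arrays lay more than 0.4 from their mean, and array 2 was the lower in 7 of them. The genes were Rpl3, Rpl7a, Rpl13a, Rpl28, Rpl36, Rpl41, Rpl23a and, in the other direction, Rpl4; all but Rpl4 are given by array because of this difference, seen in the data. Rpl7a, at -0.02 on array 1 and -1.58 on array 2, had the largest difference. Its 2 other bright probes read -0.57 and -0.44. Rpl13a read -0.24 and -1.37, Rpl28 -0.06 and -1.17, and Rpl41 -0.39 and -1.41. Rpl36 read -0.59 on array 1 and -1.43 on array 2, and Rpl23a -0.48 and -1.28. Of the 41 members with a mean at least 1.5-fold lower, 4 were short of the limit on array 1 and so did not meet the rule: Rpl3, Rpl7a, Rpl13a and Rpl28.

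The dye contrast, which takes the difference between the arrays in place of their mean, passed the 2-fold rule in 0 of 16698 genes. By the 1.5-fold rule it passed in 1 gene toward lower and 19 genes toward higher. A gene lower on both arrays cannot pass these rules on the dye contrast, so the count says nothing about the members. Without its sign, the dye contrast of a gene is the value after ± for its representing probe. The largest dye contrast of a member was 0.78, for Rpl7a, and that of any gene 0.86. Before any normalization, the median ratio of the members' probes was -1.35 on array 1 and -0.62 on array 2, against -0.56 and -0.02 for all kept probes and -0.49 and 0.34 for non-ribosomal genes with a signal of at least 12. The normalised ratios are relative to the centre of each array, so they measure a share of the labelled RNA and not an amount per cell.

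Separate probes of a gene mostly gave the same direction. Of 89 probes 83 were kept, and 76 of these were below 0 on both arrays. Of all measured genes, each read by 1 probe, 42.9% were, and the family was picked for being lower. The other 7 were the representing probes of Rpl4, Rpl7l1, Rpl36al and Rpl3l, the dimmer probes of Rpl5 and Rpl7l1 already given, and a second Rpl23 probe at 0.02 on array 1 and -0.70 on array 2. In 21 of 23 genes with more than 1 kept probe, all had the same sign, and the exceptions were Rpl5 and Rpl7l1. For dim probes the sign says little. Those of Rpl9, Rpl11, Rpl21 and Rpl27a, with log2 signals from 6.02 to 6.49, read between -0.04 and -0.02. The size could differ: Rpl36a read -0.71 on its brightest probe and -1.31 and -1.25 on a pair that overlap each other.

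Pseudogenes limit what a probe can be tied to. The 27 kept probes that span an intron on mm9, whose bases are contiguous in a spliced mRNA and in a processed pseudogene but not in the gene, had a median of -0.85, and the 54 contiguous ones -0.68. Of 9 probes designed on Ensembl transcripts, 6 were kept, and apart from the Rpl5 probe these 5 read between -0.31 and -0.02. Those of Rpl7a, Rpl9, Rpl13 and Rpl27a had log2 signals of only 5.99 to 6.04, near background, and that of Rpl10 had 8.51. The contiguous probes hold further dim ones, such as those of Rpl11 at 6.45 and Rpl21 at 6.49. The groups of probes were thus not compared at like signal, and a difference by probe design was not tested. The array also carried 7 probes described as pseudogenes of large-subunit genes. All 7 were kept and below 0 on both arrays, from -1.09 for a pseudogene of L31 to -0.20 for a dim probe of an L23A pseudogene. Another pseudogene of L31 was at -1.05 and one of L32 at -0.96. Both L31 pseudogene probes were bright, with log2 signals of 13.62 and 13.41, against 8.79 for the brightest Rpl31 probe. The signals of a gene and its near-identical copies cannot be told apart by such probes.

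**Figure D3:**
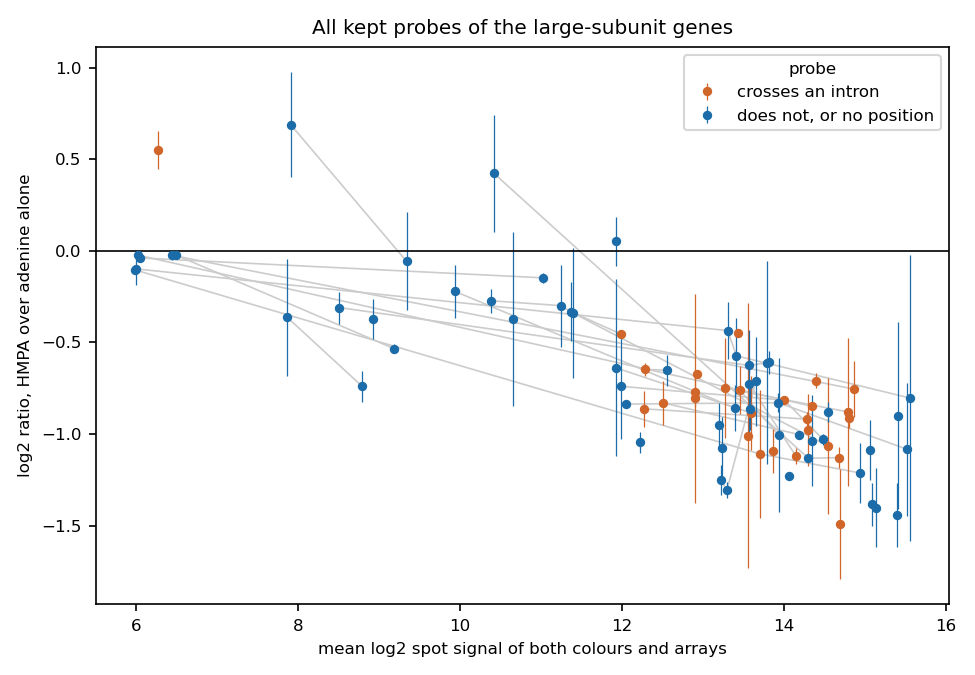
Each of the 83 kept probes of the large-subunit genes, with the mean log2 spot signal on the horizontal axis and the log2 ratio of HMPA over adenine alone on the vertical axis. Bars reach from one array to the other, grey lines join probes of the same gene, and orange marks probes that span an intron. Bright probes cluster near -1, probes with a signal near 6 lie close to 0 apart from Rpl3l in orange, and the 2 dots with bars wholly above 0 in blue are the dimmer probes of Rpl5 and Rpl7l1.

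The small-subunit genes, which encode the proteins of the other ribosomal subunit, were lower as well. Of 33 measured, 32 were below 0 on both arrays, against 42.9% of all genes, and the median was -1.14. By the 1.5-fold rule 29 (87.9%) were lower, against 16.2% of all genes, and by the 2-fold rule 19, against 7.72%. The lowest were Rps12 at -1.57 and Rps20 at -1.55, and the highest were Rps27l at 0.03 and Rps10 at -0.64. Rps27l is a paralog of Rps27, and the highest gene of either subunit was a paralog. Fau and Rps27a, whose small-subunit proteins are made as fusions, were at -1.02 and -1.29.

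The large subunit of the mitochondrial ribosome, made of different proteins, showed the opposite direction. Of its 49 measured genes 39 were above 0 on both arrays, against 5990 of all 16698 genes, and the median was 0.44. By the 1.5-fold rule 15 (30.6%) were higher, against 13.5% of all genes, and 3 (6.12%) lower, against 16.2%. The highest were Mrpl44 at 0.98 and Mrpl38 at 0.95. The 3 lower genes were Mrpl23 at -0.95, Mrpl52 at -0.85 and Mrpl33 at -0.75.

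Other genes of translation lay between these families. The median of 9 measured genes of elongation factors and related proteins was -0.48. By the 1.5-fold rule 4 (44.4%) were lower, against 16.2% of all genes, and 1 (11.1%) higher, against 13.5%. Eef1b2, which recharges the factor that delivers tRNA, was at -1.01 and Eef2, the translocation factor, at -0.86. The 1 higher gene, Eef1e1, which is not itself an elongation factor, was at 0.64, and Eif5a2 was at -0.06. The median of 37 genes of initiation factors and their regulators was -0.15, and the rule called 4 (10.8%) lower, under the 16.2% of all genes, and 0 higher. The helicase Eif4a1 was at -1.14 and the translation repressor Eif4ebp1 at -0.91. The helicase paralog Eif4a2 was at 0.59 and Eif3i at 0.45.

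Genes other than ribosomal proteins whose mRNAs carry a TOP element had a median of -0.79. By the 1.5-fold rule 12 of 21 (57.1%) were lower, against 16.2% of all genes, and 0 higher, against 13.5%. This list shares 5 elongation factor and 4 initiation factor genes with those above, and Ncl and Npm1 with the next. Its lowest members were Vim, the filament protein of mesenchymal cells, at -2.28 and the host gene of small nucleolar RNAs Gas5 at -1.24. Nap1l1 was at 0.29 and Eif4b at -0.05. The median of 74 genes that build ribosomes was -0.07, with 10 (13.5%) lower, near the 16.2% of all genes, and 0 higher. Tcof1, which serves transcription of ribosomal RNA genes, was at -1.12 and the nucleolar protein gene Ncl at -1.06, and Rpf2 and Sbds were at 0.55 and 0.47.

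The 23 genes of mTOR and Myc signalling had a median of -0.05. By the 1.5-fold rule 8 (34.8%) were lower, against 16.2% of all genes, and 3 (13%) higher, near the 13.5% of all genes. Ddit4, an inhibitor of mTOR induced by stress, was at -2.55 and Myc, a transcription factor that activates ribosome genes, at -1.89. Mtor was at 1.18 and Mxi1, a Myc antagonist, at 0.83. Mxd1 and Mxd4, which also antagonise Myc, were lower at -0.61 and -0.72 and are named after their values were seen. These are mRNA ratios and measure no kinase activity or translation.

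**Figure D4:**
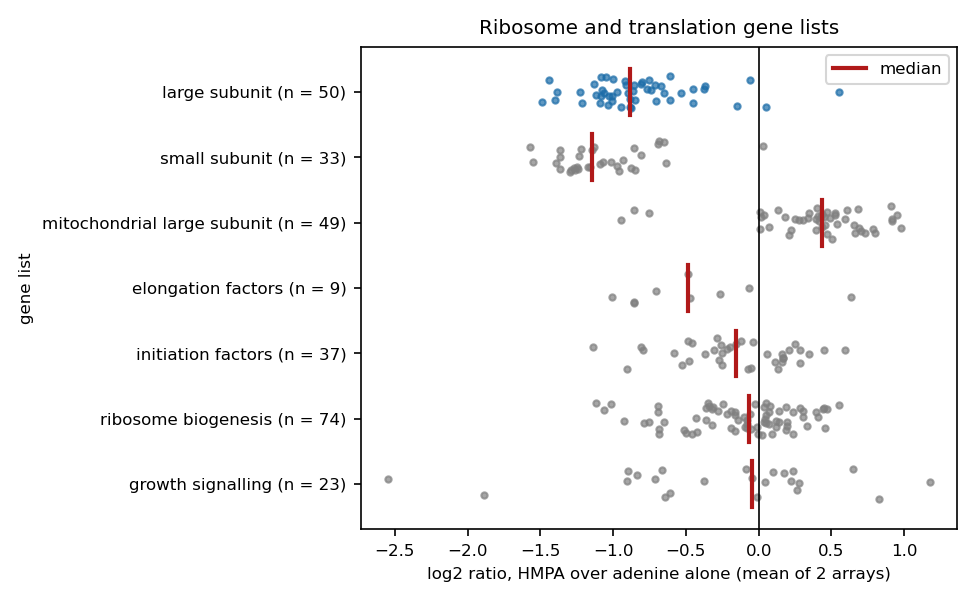
Log2 ratio of HMPA over adenine alone (mean of both arrays) on the horizontal axis, with each gene a dot and each list a row whose median is the red bar. The large-subunit and small-subunit rows lie left of 0 with medians of -0.88 and -1.14, the mitochondrial large-subunit row lies right of 0 with a median of 0.44, and the biogenesis and growth signalling rows straddle 0.

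Markers of several kidney cell types had ratios farther from 0 than the ribosomal genes. Markers of the proximal tubule, thick limb, podocyte and collecting duct were all measured, as in kidney tissue. Of these, the thick limb genes Slc12a1 and Umod were at 1.22 and 0.11 and the collecting duct genes Aqp2 and Avpr2 at 1.09 and 0.87, and all but Umod met the 1.5-fold rule as higher. All 6 proximal tubule markers were higher by the 1.5-fold rule, between 1.75 for Slc5a2 and 5.03 for Slc7a13. All 4 macrophage markers were lower, between -2.05 for C1qa and -1.41 for Csf1r, and the fibroblast markers Col1a1 and Pdgfrb were lower at -3.23 and -1.85. The erythroid genes Hba-a1 and Alas2 were higher at 3.64 and 2.47, and no gene was measured under the name Hbb-b1. Another beta-globin gene, Hbb-bt, was at 4.62 and is named after its value was seen. Neither podocyte nor endothelial markers met the rule in either direction, and of the lymphocyte markers Cd3e was at -0.09 and Cd79a was not measured. Cd3e was dim, with a log2 signal of 6.29, and so were the podocyte markers, with a median of 6.84. Rpl3l, about as dim at 6.27, changed its ratio with the background treatment. The values near 0 therefore do not show that podocytes and lymphocytes were unchanged. The part of these cell types in the lower ribosomal ratios was not tested.

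The sequence around the transcription start was read for the 39 members with an entry in the RefSeq promoter table of GRCm38.p6, a later build than that of the probes. A C followed by at least 6 pyrimidines, within 10 bases before to 20 after the start, was found on the gene's strand in 18 of the 39 (46.2%), against 15.6% of 27025 genes. The windows below span those 30 bases, with the run in capitals, and are shown because genes with long runs and genes without any lie at both ends of the family's ratios. The first 5 hold a run and the last 4 none.
Rplp2, chr7:141447641-141447670, plus strand: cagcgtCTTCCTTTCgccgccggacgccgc
Rpl35, chr2:39005112-39005141, minus strand: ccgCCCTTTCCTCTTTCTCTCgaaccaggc
Rpl15, chr14:18270967-18270996, minus strand: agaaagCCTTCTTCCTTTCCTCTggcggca
Rpl7a, chr2:26910797-26910826, plus strand: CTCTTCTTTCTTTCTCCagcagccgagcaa
Rpl27a, chr7:109519185-109519214, plus strand: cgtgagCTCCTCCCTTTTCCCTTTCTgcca
Rpl12, chr2:32961702-32961731, plus strand: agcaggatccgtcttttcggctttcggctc
Rpl7l1, chr17:46782637-46782666, minus strand: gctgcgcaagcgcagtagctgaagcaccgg
Rpl36al, chr12:69184048-69184077, minus strand: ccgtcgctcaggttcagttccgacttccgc
Rpl3l, chr17:24727816-24727845, plus strand: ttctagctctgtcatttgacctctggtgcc

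Among members with both a window and a ratio, the 17 with a run had a median ratio of -0.81 and the 21 without a run -0.88. Rpl27a, with a run of 20 pyrimidines, was at -0.15, and Rpl12, without a run in its window, was the lowest member at -1.49. Transcription starts in the table can be off by more than the window, and a window without a run says only that these letters are not there.

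Further motifs were searched on both strands of the 300 bases from 250 before to 50 after the start. CCGGAAG, a sequence bound by ETS factors, was in 38.5% of members and 9.9% of all genes. GGGCGG, the GC box bound by Sp1, was in 66.7% and 38.2%, AAGATGG, bound by YY1, in 12.8% and 7.3%, and CACGTG, the E-box bound by Myc and other factors, in 12.8% and 8.1%. Occurrences of different motifs may overlap. These matches describe the promoters and carry no measure of binding.

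**Figure D5:**
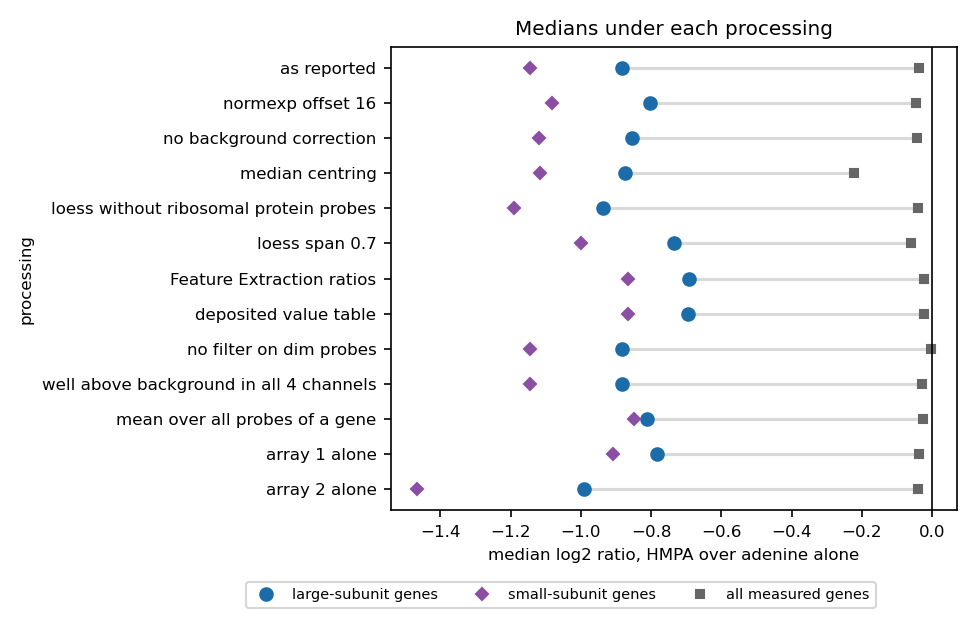
Median log2 ratio of HMPA over adenine alone under each processing of the same arrays, with large-subunit genes as circles, small-subunit genes as diamonds and all measured genes as squares. The large-subunit median stays between -0.69 and -0.99 in every row, below that of all genes, whose lowest value is -0.22 with median centring.

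The family's median was below that of all genes under each of the 12 alternatives, which reuse the arrays on which the family was picked. They are not separate checks. Feature Extraction ratios and the deposited value table both gave -0.69, and the filter settings left the ratios of all 50 measured members the same. The count by the 2-fold rule moved: it was 18 (36%) as reported, against 7.72% of all genes, and 5 (10%) with the ratios that Agilent's software computed, below the 14.7% of all genes that passed there.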

How the data were processed

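The 2-colour arrays of kidney RNA were quantified by the authors with Agilent Feature Extraction, version 12.2.0.7 per the file headers and 9.5 per the submitters' processing notes. The deposited files hold spot and local background intensity, and log10 ratios of red over green, in both the scanner files and the value table. The members and gene lists were chosen with earlier results of these data known. Intensities were background-corrected (normexp, offset 50) and loess-normalised within each array (span 0.3, controls and outlier spots given no weight) with limma 3.58.1 in R 4.3.3, and ratios turned to HMPA over adenine alone. Signals per condition were scaled between arrays (Aquantile). Spots of a probe were averaged, a probe stayed in if, for either condition, both arrays read it well above background (25138 probes), and the brightest kept probe stood for its gene. The scripts were tested on simulated data. The 12 alternatives cover background, normalization, filter, choice of probe and each array alone. The number of arrays, 2, limits the precision. Members given on each array are the lowest and highest 6, stalk genes, paralogs, genes whose probes or settings differed in sign, and, added after their values were seen, genes with distant arrays, and of other lists the outermost 2 at each end. A few genes are not reported here by name.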

Additional observations from a re-analysis of the deposited data

How the results depend on the processing

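The median ratio of the large-subunit genes was -0.88 as reported. It moved by more than the SD of the 2 array medians (0.145) under 3 alternatives. These gave -0.73 with a loess span of 0.7, -0.69 with the ratios of Feature Extraction and -0.69 with the deposited value table. The array medians themselves, -0.78 and -0.99, lay farther apart than any of these moves. The distance of the family's median from that of all genes was -0.85, with an SD between arrays of 0.142. This distance moved to -0.65 with median centring, -0.67 with the wider span, -0.67 with Feature Extraction ratios and -0.67 with the value table. On array 1 it was -0.75 and on array 2 -0.95, again farther apart than these moves. Median centring set all genes at -0.22. The count by the 2-fold rule fell from 18 to 11 with a normexp offset of 16 (22% of members, 9.94% of all genes), 6 with the wider span (12%, 7.79%), 5 with Feature Extraction ratios (10%, 14.7%), 5 with the value table (10%, 14.7%) and 11 with the mean over all probes (22%, 6.1%). With Feature Extraction ratios and the value table the members' share was thus below that of all genes. By the same rule array 1 alone gave 11 (22%, 7.67%) and array 2 alone 24 (48%, 8.89%). The count by the 1.5-fold rule stayed between 29 and 39 (58% and 78% of members), while the share of all genes ranged from 10.2% to 24.8%. With Feature Extraction ratios this count was 31 (62%), against 24.8% of all genes. The count below 0 on both arrays stayed between 44 and 47, with 49 below 0 on array 1 alone. With an array left out, the median ranged from -0.99 to -0.78. The dye contrast had 0 genes past 2-fold as reported and 6 with Feature Extraction ratios or the value table. Without ribosomal probes in the loess the median was -0.94. Rpl3l, at 0.55 as reported, passed the 1.5-fold rule as higher at 0.99 with an offset of 16, 0.85 with no background correction, 2.07 with Feature Extraction ratios or the value table and 0.65 on array 2 alone. Signs turned for Rpl36al (-0.08 with median centring and on array 1 alone), Rpl7l1 (0.32 as the mean of its probes, 0.21 on array 2 alone) and Rpl4 (0.10 on array 2 alone). The cause of these movements was not tested. No paired analysis was possible because both arrays hold the same comparison and the labels name no further groups.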
